A study of Rattus norvegicus with 8 samples.

Results

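The 9 genes described here, Rgs2, Rgs4, Rgs5, Rgs7, Rgs8, Rgs9, Rgs10, Rgs14 and Rgs16, encode regulators of G protein signalling (RGS proteins). They were chosen by name from 16677 genes named by a current rat gene table or the array, with earlier results of these data known. They were represented by 10 of the 41012 probes that were not controls, 1 probe a gene except for Rgs4, which had 2. No further probe was assigned to these genes under another name by a current rat gene table. RNA came from the medial thalamus of 8 male Sprague-Dawley rats of 277 g, all anaesthetised with urethane and all carrying an inflatable cuff on the trachea; the sources used here do not state their age. In the 4 occlusion rats, inflating the cuff blocked 2 to 4 breaths, at least 15 unobstructed breaths came next, and such bouts went on for 10 min until the brain was taken. In the 4 control rats the cuff stayed deflated and the brain was taken 70 min after setup. The sources used here do not state how long the occlusion rats were under anaesthesia in all, so that time and the occlusions cannot be told apart. RNA of each rat was labelled with Cy5 and set against a Cy3-labelled pool of all 8 rats on the same array, so each value is a log2 ratio of 1 rat to the pool, and 0 means the pool's level.

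When a neurotransmitter receptor activates a heterotrimeric G protein, its alpha subunit binds GTP and separates from the beta gamma pair, and both parts then act on enzymes and ion channels. RGS proteins speed the hydrolysis of that GTP and so end the signal sooner. In the brain they set how quickly receptors for dopamine, serotonin, acetylcholine, opioids and glutamate act on potassium and calcium channels, and their members fall into families by the domains beside the shared RGS domain: small ones of the R4 family (Rgs2, Rgs4, Rgs5, Rgs8, Rgs16), R7 proteins that need the beta subunit Gnb5 to be stable (Rgs7, Rgs9), and the R12 family (Rgs10, Rgs14).

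None of the 10 probes differed between occlusion and control rats beyond the spread between animals. All 10 were well above background in Cy5 on 8 of 8 arrays, none was saturated and none was an outlier spot, and Rgs16, the dimmest, was well above background in the pool channel on 7 arrays. In a limma fit over all 31690 tested probes, 0 members had an adjusted p under 0.05, where 0 of all probes (0%) had one and no probe had an adjusted p below 0.977. An unadjusted p under 0.05 was found for 0 members, beside 969 of all probes (3.06%). The groups did not overlap for 0 members, beside 793 of all probes (2.5%), of which 1.23% were higher and 1.27% lower in occlusion rats. Of the 10 probes, 5 were higher and 5 lower in occlusion rats, with a median log2 difference near zero (-0.00042), where 50.7% of all probes were higher and the median over all was 0.0019. The members were less alike in their spread between animals. For Rgs14, Rgs8, Rgs10, Rgs16 and Rgs2 the rat named control 3 lay far from the mean of the other 7. The distance was larger than for about 90.0% of tested probes or more.

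Control 3 also stood apart on markers of brain regions. The mean log2 ratio of 13 thalamic relay neuron markers was -0.30 to 0.17 in occlusion rats and 0.086 to 0.23 in controls 1, 2 and 4, but -1.83 in control 3, which was the lowest of all 8 rats in 12 of the 13. Slc17a6, the vesicular glutamate transporter of relay neurons, was at -2.99 there, against -0.026 to 0.26 in the other 7 rats. The mean of 11 cortical projection neuron markers was -0.63 to -0.23 in occlusion rats, -0.72 to -0.56 in controls 1, 2 and 4, and 1.34 in control 3, which was the highest in 9 of the 11. Its means of 9 meningeal and 7 hippocampal markers, at 1.03 and 0.86, were also above those of every other rat, which reached -0.022 and -0.21. Control 3 was the highest in 8 of the 9 meningeal markers and the lowest in 0. Of the 7 hippocampal markers it was the highest in 4 and the lowest in 1. Of the 13 relay markers, 12 were well above background on all arrays. In control 3 this held for 80.2% of all Cy5 spots, so it does not show which tissue that sample holds. The mean of the relay markers was far below the pool in control 3, and the difference of every member is given with and without that rat. The mean of a second list, of 8 choroid plexus and ependyma markers, moved with the groups. It was -0.42 to 0.54 in occlusion rats and -1.44 to -0.54 in control rats. Other lists varied among the rats apart from control 3. The mean of 8 reticular and inhibitory neuron markers was -0.83 to 0.46 in occlusion rats and -1.10 to -0.47 in controls 1, 2 and 4. For 6 habenula markers these ranges were -1.06 to 0.54 and -0.059 to 0.32. For 10 hypothalamic markers they were -0.62 to 0.57 and -0.89 to -0.15. The part of these lists in the member values was not tested. Each of 2 slides carried arrays of 2 occlusion and 2 control rats, and control 3 was on slide 1.

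**Figure D1:**
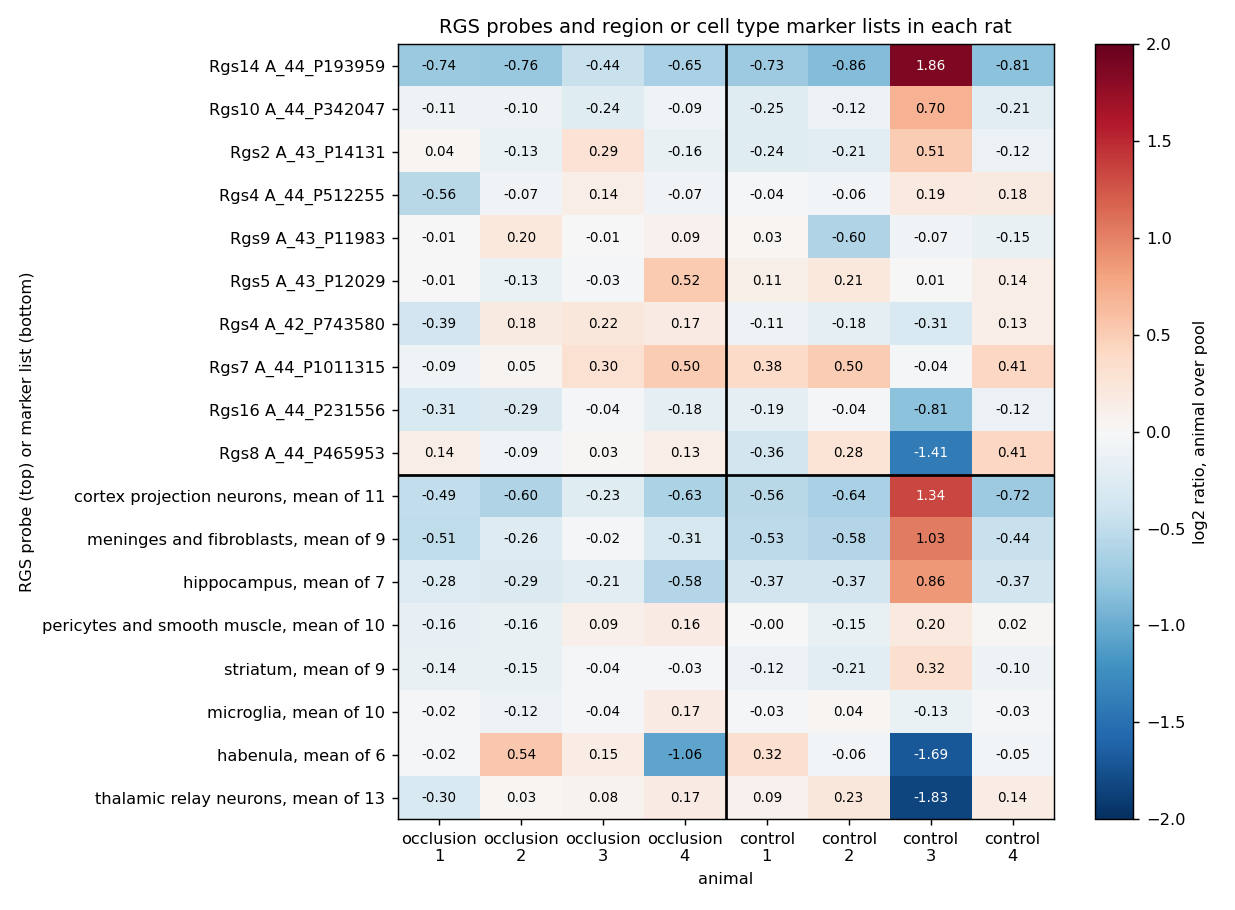
The log2 ratio of each RGS probe (top rows) and the mean log2 ratio of region or cell type marker lists (bottom rows) in each of the 8 rats, as colour and as printed values. Control 3 holds the highest Rgs14, Rgs10 and Rgs2 values and the lowest Rgs8 and Rgs16 values, along with the highest cortex and the lowest thalamic relay means.

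The promoters of 4 members are shown, and their motifs were not tested against the values. Rgs14 and Rgs8 are the members farthest from the other rats in control 3, in opposite directions. Rgs2 is known to be induced by neuronal activity in rat brain, and the probes of Rgs4 gave unlike values. Each promoter runs 300 bases 5′ to 3′, from 250 before the start of the gene to 50 after it, as given by RefSeq for the rat assembly GRCr8. Capitals mark matches, on either strand, to TGACG, the core of the cyclic AMP response element, or ACGTG, the core of the element bound by hypoxia-inducible factors; these motifs can overlap each other. Rgs14 lies at chr17:9268184-9268483 on the minus strand, Rgs8 at chr13:68366648-68366947 on the plus strand, Rgs2 at chr13:58352617-58352916 on the minus strand and Rgs4 at chr13:84475835-84476134 on the minus strand.
Rgs14: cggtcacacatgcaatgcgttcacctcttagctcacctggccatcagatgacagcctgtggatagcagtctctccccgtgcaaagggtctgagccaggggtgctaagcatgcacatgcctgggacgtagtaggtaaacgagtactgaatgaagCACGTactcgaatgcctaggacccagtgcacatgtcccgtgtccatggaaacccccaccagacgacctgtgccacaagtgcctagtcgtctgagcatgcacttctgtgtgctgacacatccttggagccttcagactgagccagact
Rgs8: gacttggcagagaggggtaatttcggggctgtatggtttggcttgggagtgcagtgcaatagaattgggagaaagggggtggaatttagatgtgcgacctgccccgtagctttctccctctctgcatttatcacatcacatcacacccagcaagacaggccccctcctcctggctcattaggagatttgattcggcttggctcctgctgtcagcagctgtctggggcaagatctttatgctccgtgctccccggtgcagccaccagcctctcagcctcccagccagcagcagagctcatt
Rgs2: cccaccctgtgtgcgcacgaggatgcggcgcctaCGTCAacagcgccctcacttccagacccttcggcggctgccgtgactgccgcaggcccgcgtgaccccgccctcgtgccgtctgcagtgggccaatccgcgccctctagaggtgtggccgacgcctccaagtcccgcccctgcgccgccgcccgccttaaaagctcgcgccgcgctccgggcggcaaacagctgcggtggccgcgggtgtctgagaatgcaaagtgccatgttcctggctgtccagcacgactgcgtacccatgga
Rgs4: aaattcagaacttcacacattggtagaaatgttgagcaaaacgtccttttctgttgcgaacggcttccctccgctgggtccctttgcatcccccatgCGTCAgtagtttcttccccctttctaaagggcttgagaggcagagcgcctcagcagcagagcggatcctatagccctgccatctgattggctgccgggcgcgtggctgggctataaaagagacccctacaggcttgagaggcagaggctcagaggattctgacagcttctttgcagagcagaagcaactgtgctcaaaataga
The Rgs14 promoter holds ACGTG once, at -97 from the start, while Rgs2 and Rgs4 hold TGACG once each, at -216 and -153, and Rgs8 holds neither. Over all 9 members, TGACG was in 2 promoters and ACGTG in 2 (Rgs7 and Rgs14), where 21.2% and 19.3% of all 33469 rat promoters of that length hold them. TGANTCA, the motif of AP-1 factors, was in 0 of 9 promoters and in 7.3% of all. A match describes these letters and is not a binding site. Rgs8 and Rgs16 are neighbouring genes on chromosome 13, as are Rgs4 and Rgs5, and 6 of the 9 members are on that chromosome.

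Rgs14, of the R12 family, is a scaffold that binds alpha subunits of the inhibitory class through a second domain as well as Ras-type GTPases, and in mouse hippocampus it limits synaptic potentiation in area CA2. Its probe A_44_P193959 lies at chr17:15293763-15293822 of build rn3, the build of the array annotation, as do all probe positions below; no gene models of that build were used, so exon and UTR are not given. The log2 ratio was -0.74, -0.76, -0.44 and -0.65 in occlusion rats 1 to 4, against -0.73, -0.86, 1.86 and -0.81 in control rats 1 to 4. Control 3 alone was above the pool, and its Cy5 signal was 97.9 times background where the other 7 rats had 7.87 to 10.9. That is 5.96-fold the mean of the other 7 (2.57 in log2), a larger gap than 99.7% of tested probes had in either direction. The pool contains control 3, so a high value there also raises the pool. The mean of the 8 linear ratios was 0.990, where an equal pool gives 1. For the other member probes that mean ran from 0.85 (Rgs16) to 1.21 (Rgs7), and a dye bias of the probes was not tested.

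The occlusion mean of Rgs14 was -0.65 ± 0.15 and the control mean -0.14 ± 1.33 (SD, n = 4 each), a difference of -0.51 with a standard error of 0.56 and a 95% interval of -1.77 to 0.75 (limma adjusted p = 0.977). Without control 3 the difference was 0.16, so the sign rests on that rat, and the SD over rats fell to 0.139 from 0.919 with it. Slide 1 alone, where control 3 lies, gave -1.27, and slide 2 alone gave 0.26. Rgs14 was thus high in the rat whose hippocampal, cortical and meningeal marker means were highest, and its groups overlapped. In that rat the means of reticular and inhibitory neuron (1.18), striatal (0.32) and pericyte and smooth muscle markers (0.20) were also the highest. The part of those tissues and cells in the Rgs14 value was not tested.

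Rgs10, a small R12 protein found in neurons and, abundantly, in microglia, was measured by A_44_P342047 at chr1:187784730-187784789. Its log2 ratio was -0.11, -0.10, -0.24 and -0.087 in occlusion rats, against -0.25, -0.12, 0.70 and -0.21 in control rats. Here too 7 rats lay close together below the pool and control 3 lay above it, 1.82-fold the mean of the rest. The mean of 10 microglial markers was -0.13 in control 3, against -0.12 to 0.17 in occlusion rats and -0.031 to 0.035 in the other controls. The part of microglia or of any other cell type in the Rgs10 value was not tested. The group difference was -0.17 (SE 0.20, interval -0.61 to 0.28, adjusted p = 0.977) and 0.058 without control 3, and it was -0.35 on slide 1 and 0.020 on slide 2. Leaving out control 3 brought the SD over rats to 0.0708, smaller than that of all but 12.1% of tested probes, so that among the other 7 rats Rgs10 was the steadiest member.

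**Figure D2:**
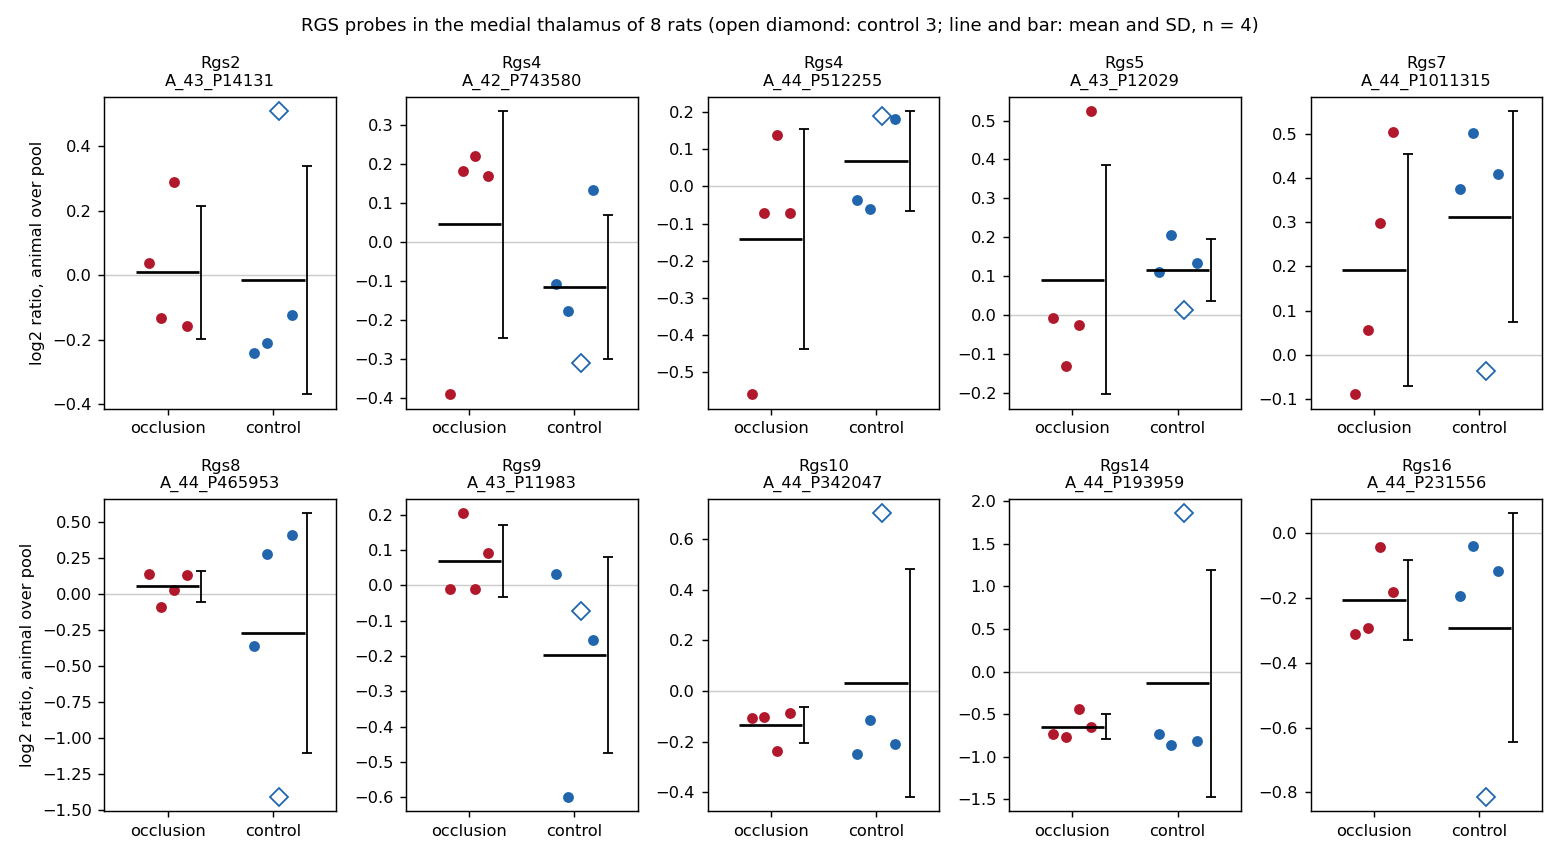
The log2 ratio of each RGS probe, animal over pool, in the 4 occlusion rats (red) and the 4 control rats (blue), each panel with its own vertical scale. Lines and bars are group means and SDs (n = 4). The open diamond, control 3, lies outside the other 7 rats for Rgs14, Rgs10, Rgs2, Rgs8 and Rgs16 and just above them for the Rgs4 probe A_44_P512255. The groups overlap in every panel.

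Among R4 members, Rgs8, which in rat was found to speed the opening and closing of G protein-gated potassium channels, gave the opposite picture in control 3. Probe A_44_P465953 lies at chr13:68780169-68780228. Occlusion rats had log2 ratios of 0.14, -0.088, 0.029 and 0.13, against -0.36, 0.28, -1.41 and 0.41 in control rats. The occlusion values were tightly grouped and lay inside the range of the controls, whose lowest value, control 3, was 0.358 of the mean of the other 7 rats. With all rats the means were 0.054 ± 0.11 in occlusion and -0.27 ± 0.83 in control rats (SD, n = 4 each), a difference of 0.32 (SE 0.35, interval -0.47 to 1.12, adjusted p = 0.977). Without control 3 it was -0.055, with slide 1 alone 0.52 and with slide 2 alone 0.12. Relay neuron markers were lowest in the same rat, at a mean of -1.83. So were the means of habenula (-1.69), choroid plexus and ependyma (-1.44), hypothalamus (-1.15), oligodendrocyte (-0.44) and microglial markers (-0.13). The part of these tissues and cells in the Rgs8 value was not tested.

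Rgs8 was also the member whose pool channel varied most. Since the Cy3 channel holds the same RNA on every array, its spread is that of labelling, hybridisation and spot, not of the rats. The SD of its log2 signal was 0.394 for Rgs8 and 0.0259 to 0.124 for the other 9 probes, with a median of 0.0870 over all tested probes. On the array of occlusion 1 the Rgs8 spot was bright in both channels, with a Cy5 signal of 2958 against 911 to 1156 in the other occlusion rats and 434 to 1577 in control rats, and a Cy3 signal of 1431 against 583 to 715 on the other 7 arrays. The ratio of that rat, 0.14, was not apart from the rest. On Cy5 alone, with no division by the pool, the Rgs8 difference was 0.57.

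**Figure D3:**
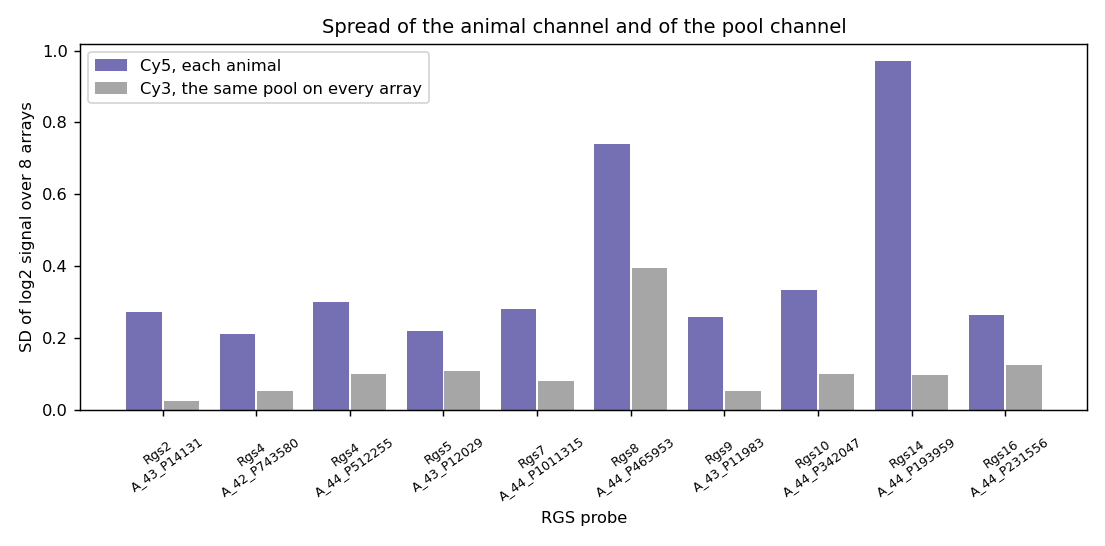
The SD over the 8 arrays of the log2 signal of each RGS probe, in the Cy5 channel with 1 rat an array (purple) and in the Cy3 channel with the same pool on every array (grey). The animal channel varied more than the pool channel for all 10 probes, most for Rgs14 (0.970 against 0.0975), and the pool bar is highest for Rgs8 (0.394).

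Rgs16, an inhibitor of signalling by the inhibitory and Gq classes whose gene adjoins Rgs8, was read by A_44_P231556, placed at chr13:68822446-68823167, a span longer than a single probe. It was dim, with Cy5 at 1.77 to 3.16 times background. Its log2 ratio was -0.31, -0.29, -0.043 and -0.18 in occlusion rats, against -0.19, -0.040, -0.81 and -0.12 in control rats, so that control 3 was again the lowest, 0.639 of the mean of the others. The difference of 0.084 (SE 0.16, interval -0.29 to 0.45, adjusted p = 0.982) turned to -0.090 without control 3, to -0.11 without background subtraction and to -0.25 on the ratios of the scanner software, and it was 0.16 on slide 1 and 0.0055 on slide 2. Its sign changed with the processing as well as with that rat.

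Rgs2, which acts mainly on alpha subunits of the Gq class, was measured by A_43_P14131 at chr13:57905038-57905097. The log2 ratio was 0.037, -0.13, 0.29 and -0.16 in occlusion rats, against -0.24, -0.21, 0.51 and -0.12 in control rats. The highest value belonged to control 3, 0.59 above the mean of the other rats in log2, and the next to occlusion 3. The difference was 0.024 (SE 0.18, interval -0.38 to 0.43, adjusted p = 0.993). Without control 3 it was 0.20 with an adjusted p of 0.932, 2 of 4 occlusion rats then being above all 3 controls, and it was -0.24 on slide 1 and 0.29 on slide 2. Its pool channel was the steadiest of the 10, with an SD of 0.0259, against 0.273 in the Cy5 channel.

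**Figure D4:**
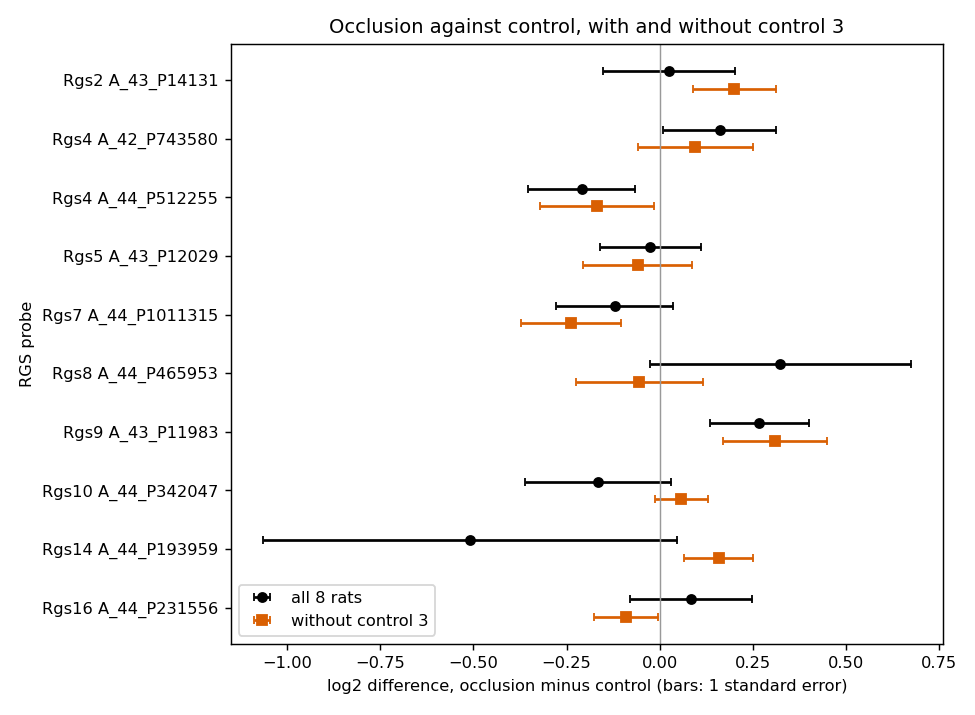
The log2 difference of each RGS probe, occlusion minus control, from the fit over all tested probes with 8 rats (black circles) and without control 3 (orange squares); bars are 1 standard error. The largest shift on leaving out control 3 is that of Rgs14, from -0.51 with all rats to 0.16 without it, and none of the values passed the threshold in either fit.

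Rgs4, abundant in cortex and thalamus and a regulator of both the inhibitory and Gq classes, was the member with a pair of probes. A_42_P743580 lies at chr13:85548287-85548346 and A_44_P512255 at chr13:85550968-85551027, 2681 bases apart, and by the order of its coordinates and its strand the first is nearer the 3′ end. On the first probe the log2 ratio was -0.39, 0.18, 0.22 and 0.17 in occlusion rats, against -0.11, -0.18, -0.31 and 0.13 in control rats, so that 3 occlusion rats were above every control and 1 was below every control. On the second it was -0.56, -0.072, 0.14 and -0.072 in occlusion rats, against -0.035, -0.060, 0.19 and 0.18 in control rats, where 3 of 4 occlusion rats were below every control. Occlusion 1 was the lowest rat on both probes, and the probes placed the groups in opposite order. They also differed in brightness, with Cy5 at 280 to 495 times background on the first and 13.9 to 26.9 times on the second. The part of brightness in their unlike values was not tested.

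The difference was 0.16 (SE 0.15, interval -0.18 to 0.50) on the first Rgs4 probe and -0.21 (SE 0.14, interval -0.54 to 0.12) on the second, each with an adjusted p of 0.977. Without control 3 these were 0.10 and -0.17. On slide 1 they were -0.016 and -0.50, and on slide 2 they were 0.34 and 0.081. Neither probe therefore separated the groups, and neither kept its sign on both slides.

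The gap between the probes, first minus second, was 0.17, 0.25, 0.082 and 0.24 in occlusion rats and -0.071, -0.12, -0.50 and -0.047 in control rats. Every occlusion rat was above 0 and every control rat below it, with means of 0.19 ± 0.079 and -0.18 ± 0.21 (SD, n = 4 each). A fit on the gap over all 4972 pairs of tested probes of the same gene, added after the Rgs4 probes were seen to differ, gave a difference of 0.37 (SE 0.11, unadjusted p = 0.00802) with a limma adjusted p of 0.998. The exact permutation p of 0.0286 is the smallest that 4 against 4 allows. The groups did not overlap in 2.51% of the pairs and 0 pairs (0%) passed the adjusted threshold, while 174 had an unadjusted p under 0.05. Without control 3, which had the lowest gap, the difference was 0.26. The median gap of probes nearer the 3′ end over those nearer the 5′ end, over 4471 pairs, was 0.0076 to 0.041 in occlusion rats and 0.0090 to 0.031 in control rats, ranges that overlapped. The sources used here do not state RNA integrity.

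**Figure D5:**
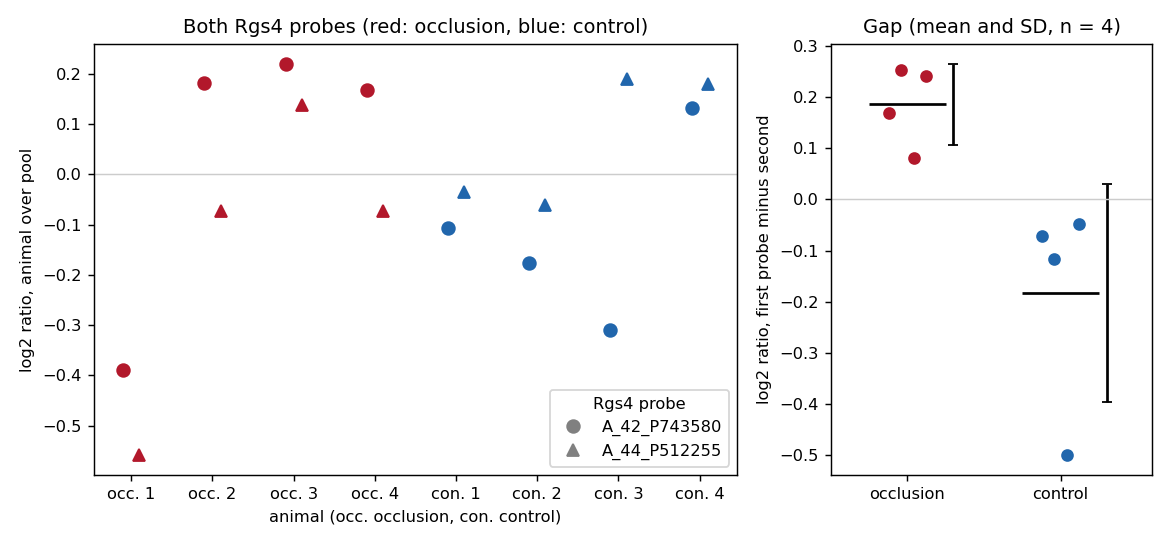
Left, the log2 ratio of the probes A_42_P743580 (circles) and A_44_P512255 (triangles) of Rgs4 in each rat, with occlusion rats in red and control rats in blue; right, the first probe minus the second in each rat, with the group mean and SD (n = 4). The gap is above 0 in the 4 occlusion rats and below 0 in the 4 control rats, while each probe alone overlaps between the groups.

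Rgs5, a marker of brain pericytes and of arterial smooth muscle, was measured by A_43_P12029, placed at chr13:85494730-85496364, a span longer than a single probe. Occlusion rats had log2 ratios of -0.0064, -0.13, -0.026 and 0.52, against 0.11, 0.21, 0.012 and 0.14 in control rats. Occlusion 4 was above every control and the other 3 occlusion rats were below every control. The difference was -0.025 (SE 0.14, interval -0.33 to 0.28, adjusted p = 0.992). Without occlusion 4 it was -0.17 (adjusted p = 0.972), and without occlusion 2 it was 0.048. It was 0.0072 after median centring of the arrays, -0.060 without control 3, -0.14 on slide 1 and 0.091 on slide 2. The mean of 10 other pericyte and smooth muscle markers was 0.16 in occlusion 4, the highest of the occlusion rats. It was 0.20 in control 3, the highest of all rats, where Rgs5 was the lowest of the controls. Among other lists, occlusion 4 was the highest occlusion rat for endothelial (0.13) and microglial markers (0.17) and the lowest for cortical (-0.63) and hippocampal markers (-0.58). The part of any cell type in the Rgs5 value was not tested. In tissue RNA such as this, fewer cells of a type and less RNA per cell cannot be told apart.

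Rgs7, the most widespread R7 protein in brain and a regulator of the inhibitory class, was measured by A_44_P1011315 at chr13:90921320-90921379. The log2 ratio was -0.091, 0.055, 0.30 and 0.50 in occlusion rats, against 0.38, 0.50, -0.038 and 0.41 in control rats. Controls 1, 2 and 4 were high and control 3 low, while occlusion rats held both the lowest and the highest value. The difference was -0.12 (SE 0.16, interval -0.48 to 0.23, adjusted p = 0.977), -0.24 without control 3, -0.20 on slide 1 and -0.038 on slide 2, and it was 0.16 when the arrays were scaled to a common spread. The mean of its 8 linear ratios was 1.21, so most rats were above a pool that should hold their average.

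Rgs9, best known in the striatum, where it limits signalling of dopamine D2 receptors, had the smallest unadjusted p of the members. A_43_P11983, at chr10:98612855-98612914, gave log2 ratios of -0.011, 0.20, -0.0096 and 0.093 in occlusion rats, against 0.033, -0.60, -0.073 and -0.15 in control rats. Occlusion 2 and 4 were above every control, and control 2 was far below every other rat. Means were 0.069 ± 0.10 in occlusion and -0.20 ± 0.28 in control rats (SD, n = 4 each), a difference of 0.27 (SE 0.13, interval -0.034 to 0.57), with an unadjusted p of 0.0758 and an adjusted p of 0.977 in limma and an exact permutation p of 0.0857. Rgs9 was the only member higher in occlusion rats under all 24 alternatives, from 0.13 without control 2 upward. Its difference was 0.21 on slide 1, 0.32 on slide 2 and 0.31 without control 3. Among the 24, the filters on probes and the blocks on slide or replicate number with all rats returned the main difference of 0.27. These settings cannot move a difference, so their sign adds nothing. In control 3, whose mean of 9 striatal markers was 0.32 against -0.15 to -0.033 in occlusion rats and -0.21 to -0.10 in the other controls, Rgs9 was at -0.073. Of those 9 striatal markers, control 3 was the highest of all rats in 4 and the lowest in 1. The part of striatal tissue in the Rgs9 value was not tested.

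The wider G protein pathway was followed in 6 lists that hold 89 genes, 74 of them tested. Of these, 34 were higher and 40 lower in occlusion rats, 0 passed the adjusted threshold in either direction, 0 had an unadjusted p under 0.05 and 0 had groups that did not overlap, and their median log2 difference was -0.026. No component of the pathway was thus called, as was the case for all probes.

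Among 8 tested partners of RGS proteins, 8 were lower and 0 higher in occlusion rats, with a median of -0.095 (-0.077 without control 3). The list includes Gnb5 (-0.033), the membrane anchor Rgs7bp (-0.16) and the receptor Gpr158 (-0.093), which recruits Rgs7. Sphk1, a kinase that makes sphingosine 1-phosphate, was at -0.21 (SE 0.17, adjusted p = 0.977). It was high in control 3, at 0.42, and without that rat its difference was -0.062.

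In a list of 10 other genes with an RGS domain, among them Axin1 (0.013) and Axin2 (0.11), 7 were higher and 3 lower, with a median of 0.013 with all rats and -0.013 without control 3. Rgs19, a small RGS protein that binds inhibitory alpha subunits, was at -0.18 (SE 0.095) and on its other probe at -0.13, and Rgs20 was at -0.078 (SE 0.061), all with an adjusted p of 0.977. As with the members, control 3 stood apart for some of them: Rgs3 was at -1.98 there, against -0.57 to 0.22 in the other 7 rats, Rgs17 at -0.57 against 0.071 to 0.35, and Rgs12 at 0.73 against -0.42 to -0.024. Rgs13 was well above background on 0 arrays and Rgs18 on 1 array, too few for the test.

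Of 13 alpha subunits, 7 were higher and 6 lower (median 0.045). Gnao1, the most abundant alpha subunit in brain and a substrate of most members, was at -0.23 (SE 0.16), and Gnat2, the cone transducin, was at 0.90 (SE 0.68), a value within its spread. Among 13 beta and gamma subunits, 6 were higher and 7 lower (median -0.060), with Gng2 at 0.21 (SE 0.095) and Gng4 at -0.087 (SE 0.061). The 16 effectors, adenylyl cyclases, phospholipases and potassium channels, had 9 higher and 7 lower (median 0.0074). Their lowest p values belonged to the potassium channel subunits that beta gamma pairs open, Kcnj6 at -0.28 (SE 0.16) and Kcnj3 at -0.51 (SE 0.31), which were high in control 3, at 0.68 and 1.06, and stood at -0.12 and -0.24 without it. In 14 other regulators 5 were higher and 9 lower (median -0.041), with Ric8b, a chaperone of alpha subunits, at 0.15 (SE 0.091), and the receptor kinase Grk2 at -0.11 (SE 0.064). Each gene named here had an adjusted p of 0.977.

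Genes whose 8 log2 ratios lay closest to those of Rgs14, the member with the largest SD, were Wfs1, Tnnc2 and Col6a1 among 13345 genes, with root mean square differences of 0.133, 0.152 and 0.158 over the 8 rats. In occlusion rats Wfs1, which is also on the hippocampal marker list, was at -0.87 to -0.30, against -0.78 to -0.67 in controls 1, 2 and 4 and 1.57 in control 3. For Rgs8, with the next largest SD, they were Akap12, Zfp423 and Prkg2, at 0.150, 0.165 and 0.169, all between -1.31 and -1.22 in control 3. These likenesses describe 8 rats of which 1 carries most of the spread.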

How the data were processed

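The RNA of each rat was hybridised in Cy5 against a Cy3 pool of all 8 rats on Agilent 2-colour arrays, with no dye swap, so a dye bias of a probe is shared by all arrays. Per the file headers, the authors processed the scans in Agilent Feature Extraction 9.5.1.1. Linear intensity in the deposited scanner files (a mean signal and a local background per channel) stands beside spot flags and that software's log10 ratio of Cy5 over Cy3. The deposited table of the whole series repeats these log10 ratios: 45018 of 45018 spots of each array matched within 1%, which settled scale and direction, and each column's median was 0, which does not show how the values were centred.

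From the deposited intensity values, log2 ratios were computed with normexp background correction (offset 50) and loess within each array in limma 3.58.1 (R 4.3.3), giving control and outlier spots a weight of 0. Spots of a probe were averaged without outliers. Tests required a probe to be well above background in the Cy5 channel of 4 or more of 8 arrays, with 2 values per group, and were made with lmFit and eBayes, two-sided, with Benjamini-Hochberg adjustment over all 31690 tested probes and a threshold of 0.05. Exact permutation used all 70 assignments of the 8 rats. Intervals are 95% intervals of the fit. With 4 arrays per group, their number limits the precision. Median Cy5 signal over background was 3.65 to 4.67, and the share of Cy5 spots well above background was 68.3% to 80.2%; the SD of all log2 ratios was 0.409 in control 3 and 0.160 to 0.289 on the other arrays.

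Of the 41012 probes, 10735 were named by accession, 1222 by gene ID, 5501 by symbol and 3718 by synonym in a RefSeq rat gene table of GRCr8, and 19836 kept the array's name. Members and lists were chosen with earlier results of these data known. The text names all members, up to 2 genes of each pathway list with the smallest unadjusted p, and the 3 genes nearest to each of the 2 members with the largest SD; other genes were chosen after their values were seen. A gene that the rule names is not reported here. A list gene is represented by its brightest tested probe. Samples with the same replicate number did not deviate together (correlations of -0.13, 0.13, 0.021 and 0.081), so the numbers were not used as pairs. Simulated data tested the fit in 5 runs with 200 changed probes each. It recovered 59.2% of 1.5-fold changes, 87.6% of 2-fold changes and 94.8% of 3-fold and of 4-fold changes. Changes below 1.5-fold were not simulated. Alternatives covered background, normalisation, channel, filters, outlier spots, weights, slide, replicate number and leaving out each rat. Figures were drawn with matplotlib 3.10.9.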

Additional observations from a re-analysis of the deposited data

Results flagged for a closer look

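In 5 of 20 checks of a member probe within a group of 4, 1 rat lay far from the other 3, where chance gives about 1 in 20; 3 of these were control 3. The Rgs14 log2 ratio of control 3 was 1.86, with the other controls at -0.86 to -0.73. The Rgs10 ratio of control 3 was 0.70, with the other controls at -0.25 to -0.12. The Rgs2 ratio of control 3 was 0.51, with the other controls at -0.24 to -0.12. On the Rgs4 probe A_42_P743580, occlusion 1 was at -0.39, with the other occlusion rats at 0.17 to 0.22. The Rgs10 ratio of occlusion 3 was -0.24, with the other occlusion rats at -0.11 to -0.087. Over all probes with values on every array, control 3 was picked out by the same check in 6.25% of 30756, control 1 in 2.70% and the other rats in 0.52% to 1.69%.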

How the results depend on the processing

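No member passed the threshold under any of 24 alternatives (23 for the second Rgs4 probe), and 208 of 239 values kept their direction. The 208 include the filters on probes and the blocks on slide or replicate number with all rats. Those settings cannot move a member's difference, so its direction was fixed there. The count of all probes past the threshold was 0 throughout except without control 3, where it was 1, and leaving out 1 rat at a time gave 0 to 1. At an unadjusted p under 0.05 it was 969 with all settings as given, 325 with median centring, 1572 with array weights, 565 without occlusion 1 and 1688 without control 1. With the replicate block it was 0 probes past the threshold and 932 at an unadjusted p under 0.05; 0 of 4 occlusion rats correlated best with the control of their own number. Leaving out control 3 and blocking on slide, chosen after seeing the data, gave 0.

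Differences that turned their sign were as follows. Leaving out 1 rat at a time gave -0.069 to 0.20 for Rgs2, -0.17 to 0.048 for Rgs5, -0.055 to 0.55 for Rgs8, -0.26 to 0.058 for Rgs10, -0.75 to 0.16 for Rgs14 and -0.090 to 0.17 for Rgs16. Slide 1 alone gave -0.24 for Rgs2 and -0.016 for Rgs4 (A_42_P743580), and slide 2 alone gave 0.081 for Rgs4 (A_44_P512255), 0.091 for Rgs5, 0.020 for Rgs10 and 0.26 for Rgs14. Array weights gave -0.093 for Rgs8, 0.012 for Rgs14 and -0.052 for Rgs16. Median centring gave 0.0072 for Rgs5 and -0.0055 for Rgs16, and scaling between arrays 0.16 for Rgs7 and -0.053 for Rgs16. Rgs16 was -0.11 without background subtraction and -0.25 on the scanner software's ratios. Without control 3 and with slide as a block, the values were -0.080 for Rgs8, 0.053 for Rgs10, 0.18 for Rgs14 and -0.071 for Rgs16. The cause was not tested, except that leaving out rats and slides uses fewer samples. Rgs16, at 1.77 to 3.16 times background, is the member whose signal over background limits its values most.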
